A study of Rattus norvegicus with 18 samples.

Results

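Keratin and desmosome transcripts were followed in distal and proximal colonic mucosa of the rat. The keratins were Krt7, Krt8, Krt18, Krt19 and Krt20, and the desmosome genes were Dsg2, Dsc2, Pkp1, Pkp2 and Dsp. Members were found by symbol, taking every probe set that the array annotation maps to exactly 1 of these 10 names. This gave 11 probe sets of the 31042 on the array that are not controls, with 2 for Dsp and 1 for each other gene. The second Dsp probe set was among the 30% with the lowest mean signal, which were not tested, so 10 member probe sets of 21729 entered the test, 1 for each gene.

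Each of 9 male Sprague Dawley rats contributed 1 array of distal and 1 array of proximal colon, 18 Affymetrix arrays in all. Every animal had been fed a modified AIN-93G diet for 10 days, was given azoxymethane, a carcinogen of the colon, injected subcutaneously at a dose of 15 mg per kg, and was killed after 6 h. Both regions therefore came from carcinogen-treated animals, and no untreated rat was among the samples. The labels mention an allocation of the animals to 2 groups but do not tie rats to them, so distal was compared with proximal colon over all rats. The mucosa was scraped from a length of 4 cm in each region, with the rectum not included, and 4.5 µg of RNA was labelled per array. Scrapings hold epithelium together with tissue beneath it. In such bulk samples fewer cells of a type and less RNA per cell cannot be told apart.

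Signals are given as log2 of the authors' deposited MAS5 intensity plus 16, after quantile normalization of the 18 arrays. Quantile normalization was used because the trimmed mean of the deposited intensities differed up to 1.62-fold between arrays. A difference is distal minus proximal on this log2 scale, with limma's moderated standard error (SE), and a gene passed the test where its limma adjusted p (Benjamini-Hochberg over all 21729 probe sets) was below 0.05. Folds are on the log2(intensity + 16) scale, which understates changes of low signals. Signals of different probe sets are not comparable as levels, so each gene was compared only with itself. The 10 markers of columnar epithelium were all among the tested genes. The log2 of their summed signals was 15.97 to 16.13 in distal and 15.88 to 16.17 in proximal arrays. Such a sum is set mostly by the brightest markers. Rat 3's proximal array stood apart, with a mean smooth muscle marker signal of 12.14 against at most 9.89 in any other array. That array also held the lowest proximal value of 8 of the 10 genes. Results were recomputed without this array and the proximal array of rat 6, which earlier results of these data set apart.

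Keratins are the intermediate filament proteins of epithelial cells, built from 1 type I chain (Krt18, Krt19, Krt20) joined to 1 type II chain (Krt7, Krt8). In simple epithelia such as the colon, Krt8 is the main type II chain, Krt18 and Krt19 are its general partners, and Krt20 is known from differentiated cells toward the luminal surface. Desmosomes anchor these filaments at cell contacts. Their cadherins, the desmogleins and desmocollins, bridge the gap between cells, and inside the membrane the plakophilins and plakoglobin link the cadherins to desmoplakin, which binds the keratin filaments. Pkp2 is the usual plakophilin of simple epithelia, whereas Pkp1 is best known from stratified epithelia such as the epidermis, and human PKP1 deficiency gives fragile skin.

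Of the 4 genes that passed the test, 3 had an entry in the table of RefSeq promoters (build GRCr8), as did 7 of the 10 members overall. These 3 are shown because their transcripts differed between the regions, in both directions. Each is the 250 bases before the annotated start, 5′ to 3′ on the gene's strand. Capitals mark matches, on either strand, to a TATA box (TATAAA), a CDX core (TTTAT), a GC box (GGGCGG) or an AP-1 motif (TGANTCA). The TATA box and the CDX core can overlap, since both hold the letters of ATAAA or TTTAT.
Krt20, chr10:84890286-84890535, minus strand: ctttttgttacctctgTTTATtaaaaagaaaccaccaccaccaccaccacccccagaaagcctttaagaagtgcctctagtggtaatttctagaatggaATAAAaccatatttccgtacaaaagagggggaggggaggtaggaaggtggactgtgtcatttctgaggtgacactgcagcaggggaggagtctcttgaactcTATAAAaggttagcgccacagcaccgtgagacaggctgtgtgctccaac
Pkp1, chr13:49909163-49909412, minus strand: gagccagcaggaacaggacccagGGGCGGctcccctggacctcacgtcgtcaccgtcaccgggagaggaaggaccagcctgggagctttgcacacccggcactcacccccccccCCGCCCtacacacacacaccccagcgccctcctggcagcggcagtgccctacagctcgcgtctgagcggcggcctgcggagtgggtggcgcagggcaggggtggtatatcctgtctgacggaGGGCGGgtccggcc
Dsp, chr17:26877122-26877371, minus strand: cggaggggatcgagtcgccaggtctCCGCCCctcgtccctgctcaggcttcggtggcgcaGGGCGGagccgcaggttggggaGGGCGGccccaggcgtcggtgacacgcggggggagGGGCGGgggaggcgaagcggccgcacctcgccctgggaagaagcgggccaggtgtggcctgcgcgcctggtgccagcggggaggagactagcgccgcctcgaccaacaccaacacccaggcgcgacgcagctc

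The Krt20 window held 1 TATA box, whose first base lies 49 bases before the start, and 3 CDX cores, of which 1 overlaps the TATA box. A TATA box occurred in 12.9% and a CDX core in 39.3% of 33465 promoter windows of the same length. The Pkp1 window held 3 GC boxes and the Dsp window 4, and 30.5% of all windows held at least 1. None of the 3 windows held the AP-1 letters, which occurred in 6.34% of all windows. The G and C content was 71.2% for Pkp1, 75.2% for Dsp and 47.2% for Krt20, against a median of 51.2% over all windows. A match is only a run of letters, and no binding was measured here.

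The comparison of distal with proximal colon asked which of these filament and junction genes differed in transcript along the colon after azoxymethane. Pkp1 was 3.40-fold higher in distal colon, Krt7 was 1.75-fold higher and Dsp was 1.16-fold higher, the last call holding with quantile normalization but not with the other scalings of the arrays. Krt20 was 1.40-fold lower in distal colon. The other 6 genes, Krt8, Krt18, Krt19, Dsg2, Dsc2 and Pkp2, did not pass. The 3 of 10 members that were higher stand beside 14.3% of all tested probe sets called higher in distal colon, and the 1 lower member stands beside 12.2% called lower. In either direction 4 of 10 members passed, and 26.5% of all tested probe sets did. The median difference over the members was 0.05 on the log2 scale, and that over all tested probe sets was 0.03. The plot of every array's signal shows the separation of the regions for Pkp1, Krt7 and Dsp and the close overlap for most of the others.

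**Figure D1:**
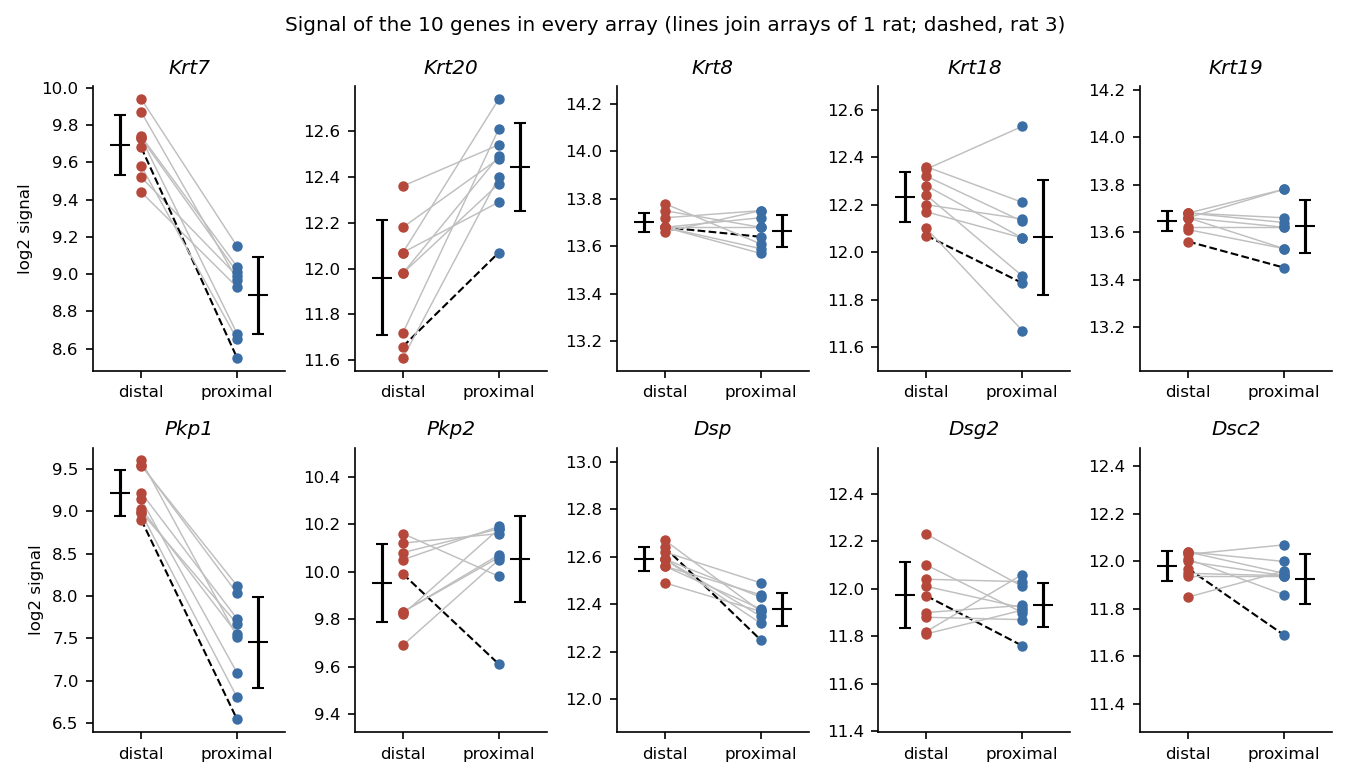
Log2 signal (vertical axis of each panel, scaled to the gene) of the 10 genes in the 9 distal and 9 proximal arrays, with lines joining arrays of 1 rat and a dashed line for rat 3. Bars give the mean and 1 SD; Pkp1, Krt7 and Dsp do not overlap between regions, Krt20 lies lower in distal colon in every rat, and rat 3's proximal point is the lowest for 8 genes.

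Among the type II keratins, Krt7, a keratin of ducts and glands, had a log2 signal of 9.44 at lowest, 9.73 at the median and 9.94 at highest in distal arrays, against 8.55, 8.97 and 9.15 in proximal arrays. Every distal array thus lay above every proximal one, a separation in this direction that 2.38% of all tested probe sets showed. The difference was 0.81 (SE 0.086, 95% interval 0.63 to 0.99, limma adjusted p = 8.24e-07), and it was positive in 9 of 9 rats. On the deposited intensities, before quantile normalization, the ranges did overlap, with 596.5 to 1139 in distal and 379.4 to 634.1 in proximal colon. The gene was still higher in distal colon in each rat, and its difference with the deposited scaling was 0.71 (limma adjusted p = 0.000391).

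Krt8, the main type II chain of simple epithelia, had a log2 signal of 13.66, 13.68 and 13.78 at lowest, median and highest in distal arrays and of 13.57, 13.68 and 13.75 in proximal arrays. The medians were equal, and the distal arrays lay within a narrower band. The difference was 0.04 (95% interval -0.02 to 0.10, limma adjusted p = 0.37) and turned to -0.10 with the deposited scaling, so no region difference was detected. Its interval after quantile normalization does not reach the difference of Krt7. That scaling gives each rank the same value in every array, and Krt8 ranked 3 to 13 from the top. A probe set at such ranks has little room to rise, so a rise in either region could show only in part.

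Krt18, the type I partner of Krt8, had a log2 signal of 12.07, 12.24 and 12.36 in distal arrays (lowest, median, highest) and of 11.67, 12.06 and 12.53 in proximal arrays. It was higher in distal colon in 8 of 9 rats, while rat 8's proximal array held the highest value of all 18. The difference of 0.17 did not pass (SE 0.082, 95% interval -0.0043 to 0.34, limma adjusted p = 0.144). With the rat as a block it passed (limma adjusted p = 0.0325), as it did without rat 8 (0.21, limma adjusted p = 0.0366), and with the deposited scaling it was 0.03 (limma adjusted p = 0.915).

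Krt19, a type I keratin without a tail domain, had a log2 signal of 13.56, 13.66 and 13.68 in distal and of 13.45, 13.62 and 13.78 in proximal arrays. The proximal arrays spanned the whole distal range. The Krt19 probe set ranked 3 to 23 from the top, so the limit stated for Krt8 holds here too. The difference was 0.02 (95% interval -0.06 to 0.11, limma adjusted p = 0.73), and it changed sign with the deposited scaling (-0.11) and without the proximal arrays of rats 3 and 6 (-0.0027).

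Krt20, the type I keratin of differentiated cells, ran the other way from Krt7. Its log2 signal was 11.61, 11.98 and 12.36 in distal arrays and 12.07, 12.48 and 12.74 in proximal arrays. The ranges overlapped, but within each of the 9 rats the distal value was the lower. Relative to proximal colon the signal fell by 0.49 on the log2 scale (SE 0.097, 95% interval -0.69 to -0.28, limma adjusted p = 0.000921). With the deposited scaling 2 of 9 rats had the higher value in distal colon, and the difference was still called at -0.62 (limma adjusted p = 0.004).

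The lists of surface colonocyte, crypt and cycling cell, goblet and columnar markers also held more lower than higher calls in distal colon. Over all 11407 genes 16.2% were called higher and 14.5% lower. Of 6 markers of surface colonocytes, 1 was called higher and 4 lower. The log2 of their summed signals was 13.75 to 14.52 in distal and 14.60 to 15.07 in proximal arrays. Of 6 markers of the crypt base and of cycling cells, the 1 called higher was the crypt base marker Lgr5 (0.90, limma adjusted p = 0.000138). The 3 called lower, Mki67, Top2a and Ccna2, are genes of cycling cells. The log2 of the summed signals of all 6 was 10.0 to 10.7 in distal and 10.34 to 11.2 in proximal arrays. Goblet cell markers had 1 of 7 genes higher and 3 lower, and columnar epithelium markers 1 of 10 higher and 4 lower. The part of any of these cells in the Krt20 difference was not tested.

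The desmosomal cadherins did not pass the test. Dsg2, the desmoglein of simple epithelia, had a log2 signal of 11.81, 11.97 and 12.23 in distal arrays and of 11.76, 11.92 and 12.06 in proximal arrays. Its difference was 0.04 (95% interval -0.08 to 0.15, limma adjusted p = 0.655), and the highest value was that of rat 2's distal array. Dsc2, the matching desmocollin, had 11.85, 12.00 and 12.04 in distal arrays and 11.69, 11.94 and 12.07 in proximal arrays. Its difference was 0.05 (95% interval -0.04 to 0.14, limma adjusted p = 0.413). Both genes were higher in distal colon in 6 of 9 rats with quantile normalization and in 3 of 9 with the deposited scaling, under which the differences turned to -0.10 for Dsg2 and -0.09 for Dsc2.

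The plaque genes showed the widest spread of differences. Pkp1 had a log2 signal of 8.90, 9.14 and 9.60 in distal arrays, against 6.54, 7.55 and 8.12 in proximal arrays. The regions did not overlap, nor did the deposited intensities, which were 356.4 to 856.1 in distal and 101.4 to 290.8 in proximal colon. The difference was 1.77 (SE 0.19, 95% interval 1.38 to 2.16, limma adjusted p = 6.76e-07), positive in 9 of 9 rats.

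Proximal arrays varied more for this gene than distal ones, with 9.22 ± 0.28 in distal and 7.45 ± 0.54 in proximal colon (mean and SD, n = 9 each). The lowest proximal values were those of rat 3 (6.54) and rat 6 (6.80). Without these 2 proximal arrays Pkp1 was still 2.94-fold higher in distal colon (a log2 difference of 1.56, limma adjusted p = 2.5e-07). The 95% interval of Pkp1 lies above that of Krt7, the member with the next largest difference.

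Pkp2, the usual plakophilin of simple epithelia, had 9.69, 9.99 and 10.16 in distal arrays and 9.61, 10.07 and 10.19 in proximal arrays. Distal values were the lower in 7 of 9 rats, and the difference of -0.10 did not pass (95% interval -0.27 to 0.07, limma adjusted p = 0.39). Rat 3's proximal array, at 9.61, lay well under the next proximal value of 9.98. Pkp1 and Pkp2 are set against each other as a within-array ratio further on.

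Dsp, the linker between the plaque and keratin filaments, had 12.49, 12.59 and 12.67 in distal arrays and 12.25, 12.37 and 12.49 in proximal arrays. The rounded ranges met at 12.49, yet each distal value exceeded each proximal one. The difference was small but even across rats, at 0.21 (SE 0.034, 95% interval 0.14 to 0.28, limma adjusted p = 0.000107), positive in 9 of 9. This call depended on the scaling: the difference was 0.06 with the deposited scaling (limma adjusted p = 0.718, higher in 4 of 9 rats) and 0.20 with arrays centred on their medians (limma adjusted p = 0.0801).

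The second Dsp probe set lay at 4.15, 4.68 and 5.39 in distal and at 4.56, 5.07 and 5.47 in proximal arrays, under the log2 signal of 5.54 at which probe sets were left out. It was not tested, and at signals this low its values carry little information on Dsp.

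The median difference of all tested probe sets was 0.03 after quantile normalization and -0.09 with the deposited scaling. Measured from the median of its own scaling, Dsp was 0.18 above it with quantile normalization and 0.15 above it with the deposited scaling. Krt8, Krt19, Dsg2 and Dsc2, whose signs differed between the scalings, lay from -0.02 to 0.02 of that median in both. Pkp1, at 1.74 and 1.75, Krt7, at 0.78 and 0.80, and Krt20, at -0.52 and -0.53, hardly moved against it. The plot of the 3 scalings shows Krt8, Krt19, Dsg2 and Dsc2 on the other side of 0 with the deposited scaling, while the other 6 genes keep their sign in all 3.

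**Figure D2:**
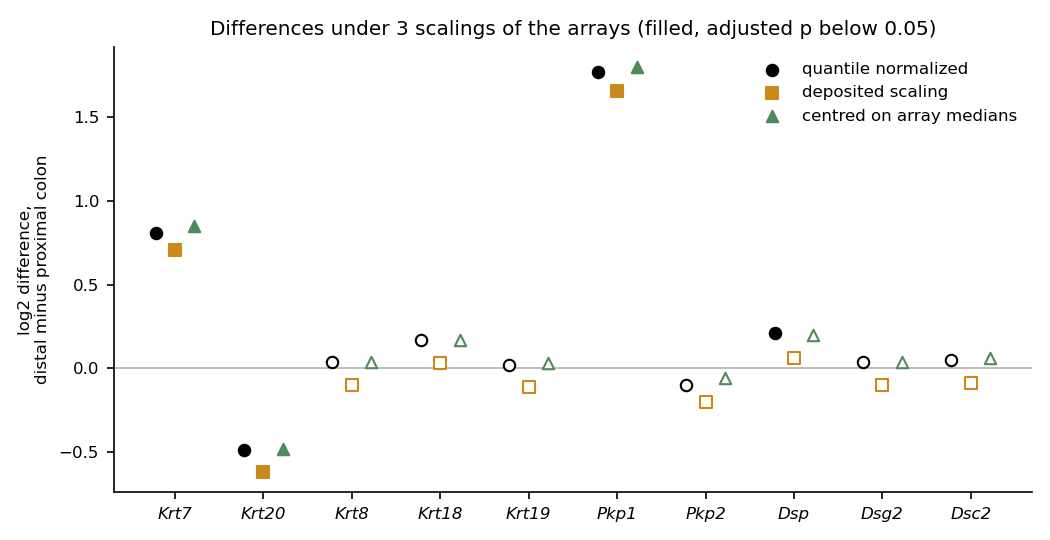
Log2 difference, distal minus proximal colon (vertical axis), of each gene with quantile normalization, the deposited scaling and arrays centred on their medians; filled symbols have a limma adjusted p below 0.05. Pkp1, Krt7 and Krt20 are filled in all 3, and Dsp only with quantile normalization.

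Over all 21 alternative settings, Pkp1 stayed between 1.51 and 1.87, Krt7 between 0.71 and 0.85 and Krt20 between -0.62 and -0.44, and each passed in all of them. Dsp passed in 19 and Krt18 in 2. Krt8, Krt19, Dsg2, Dsc2 and Pkp2 passed in none, with the lowest limma adjusted p at 0.0661 for Pkp2.

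Ratios of 2 member genes within an array do not change when all its intensities are multiplied by 1 factor. Quantile normalization can change them, so they were taken on the deposited intensities. Their absolute size depends on the probes, and they are a description of unequal change, with no test. Pkp1 over Pkp2 had a log2 ratio of -1.21 to -0.29 in distal arrays (median -0.67) and of -3.36 to -2.22 in proximal arrays (median -2.59). The ranges were far apart, and the change within a rat averaged 1.96 ± 0.25 (SD, n = 9), from 1.61 to 2.40.

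Krt7 over Krt20 ran from -2.94 to -1.58 in distal arrays (median -2.40) and from -4.09 to -3.40 in proximal arrays (median -3.53). Again the regions did not overlap, with a mean change within a rat of 1.35 ± 0.44 (SD, n = 9) and a higher ratio in distal colon in each rat. Against the more general keratin of its own type, each of these genes moved likewise. Krt7 over Krt8 changed by 0.83 ± 0.24 and was higher in distal colon in 9 of 9 rats, and Krt20 over Krt19 changed by -0.51 ± 0.28 and was higher in distal colon in 0 of 9 (SD, n = 9).

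Dsp also moved against the cadherins of its own junction. Dsp over Dsc2 changed by 0.15 ± 0.09 and Dsp over Dsg2 by 0.16 ± 0.16, with a higher ratio in the distal array of 8 of 9 rats in both cases (SD, n = 9). Pkp1 over Dsp changed by 1.70 ± 0.32, in the same direction in 9 of 9 rats. Krt8 over Krt18 changed by -0.13 ± 0.13 and was higher in distal colon in 1 of 9 rats.

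**Figure D3:**
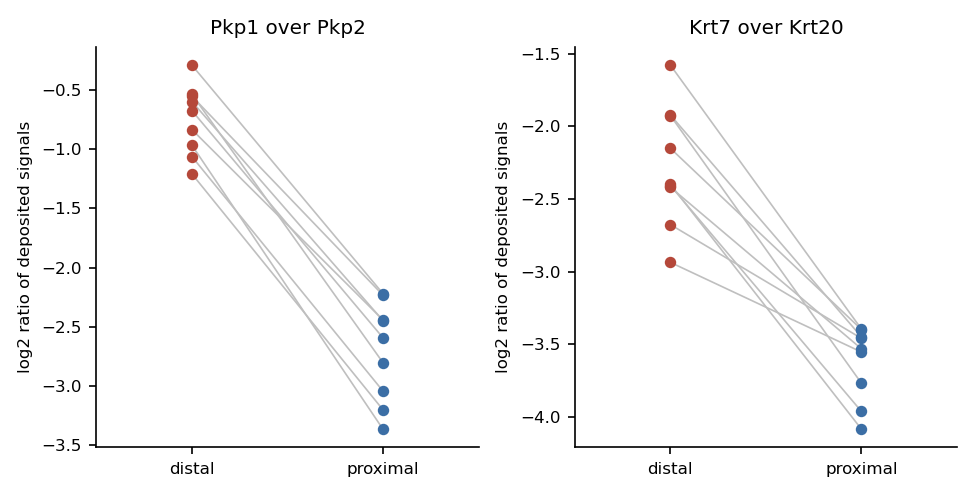
Log2 ratio of the deposited signals of Pkp1 over Pkp2 (left) and Krt7 over Krt20 (right) in the 9 distal and 9 proximal arrays, with lines joining arrays of 1 rat. In both panels every line falls toward proximal colon, and the lowest distal ratio lies above the highest proximal one.

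Whether partner genes varied together between rats was asked of 3 pairs in each region, with exact two-sided permutation of pairings and adjustment over the 6 relations. After quantile normalization Dsg2 and Dsc2 had the highest Pearson's r, 0.54 in distal and 0.56 in proximal colon (n = 9 rats, adjusted exact permutation p = 0.386 each, Spearman's rho 0.483 and 0.3). For Krt8 with Krt18, r was 0.265 in distal and 0.428 in proximal colon (rho 0.0913 and 0.198). For Dsp with Pkp2 it was 0.273 and 0.462 (rho 0.427 and -0.0333). None of the 6 relations passed, and 3 of them changed sign when the 2 rats with the most extreme values of the first gene, counted from its median, were left out.

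With the deposited scaling the same 6 values of r were 0.812 to 0.956, all past the threshold (adjusted exact permutation p up to 0.00939). By Spearman's rho, Dsp with Pkp2 in distal colon did not pass (0.633, adjusted exact permutation p = 0.076). The other relations did, with rho from 0.783 to 0.983. The points under this scaling share the overall signal of each array, which quantile normalization takes out. With the 2 rats left out that were most extreme under the deposited scaling, r was 0.282 to 0.938. Only Dsg2 with Dsc2 then still passed, in both regions (adjusted exact permutation p = 0.00477 each).

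By chromosome, as the RefSeq gene table of GRCr8 orders them, Krt8 and Krt18 are direct neighbours on chromosome 7 and Krt7 lies on the same chromosome. Krt19 and Krt20 lie on chromosome 10, and Dsg2 and Dsc2 on chromosome 18. Of those on chromosome 7 only Krt7 passed, of the pair on chromosome 10 only Krt20 passed, and of the pair on chromosome 18 neither did.

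Among other genes of the array, those most like each called member were found by Pearson's r of log2 signal over all 18 arrays after each region's mean was subtracted, among 11258 genes. These values describe variation between rats within regions, and arrays share animal and tissue makeup. Nearest to Pkp1 were Ptger4 (r = 0.90), Alox5ap (0.889) and Alg10 (0.875). In distal arrays alone r was 0.751, 0.686 and 0.862 for them, and in proximal arrays alone 0.942, 0.938 and 0.879. None of these 3 genes passed between regions, with Ptger4 at 0.29 (limma adjusted p = 0.194) and Alox5ap at 0.32 (limma adjusted p = 0.128). Krt20 was followed by Rhof (0.869), Mxd1 (0.857) and Sp140 (0.846), and again none of these passed.

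For Krt7 the nearest genes were Tsfm (0.836), Rhbdd2 (0.807) and Rbbp5 (0.77), of which Rhbdd2 was also higher in distal colon (0.39, limma adjusted p = 0.000784). For Dsp they were Gab2 (0.721), Egln1 (0.719) and Pitpnm1 (0.716). In distal arrays alone r with Dsp was 0.497, 0.504 and 0.785, and in proximal arrays alone 0.817, 0.81 and 0.722. For the genes nearest to Krt7 and Krt20 it was 0.669 or more in each region alone. Egln1 and Pitpnm1 differed between the regions in the direction opposite to Dsp, at -0.39 and -0.24 (limma adjusted p = 0.000238 and 0.0284). The likeness of Gab2 to Dsp dropped to r = 0.341 with the deposited scaling.

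The other desmosome genes were then set beside the members. Of 12 listed, 9 had a probe set and 6 were tested, of which 3 were higher and 1 lower in distal colon, beside the same 16.2% and 14.5% over all genes. Evpl, which encodes envoplakin, a plakin of the cornified envelope, had 9.71, 9.81 and 10.13 in distal arrays and 8.28, 9.0 and 9.33 in proximal arrays. It was 1.94-fold higher in distal colon, with no overlap (0.96, SE 0.12, limma adjusted p = 7.62e-06, 9 of 9 rats). Ppl, encoding its partner periplakin, had 6.4, 6.70 and 6.87 in distal and 4.72, 6.21 and 6.47 in proximal arrays. It was 1.57-fold higher (0.65, limma adjusted p = 0.0098, 9 of 9 rats), but not with the deposited scaling (0.51, limma adjusted p = 0.0793). Its lowest proximal value lay under 5.54, the mean signal at which probe sets were left out. The size of its difference depended on the pseudocount, at 0.85 with 1 and 0.39 with 64, and was 0.46 without rat 4. It passed in these 3 settings (limma adjusted p = 0.0221, 0.00411 and 0.00408).

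Pkp3, another plakophilin, broadly present in epithelia, was 1.25-fold higher in distal colon (0.32, limma adjusted p = 0.0326, 8 of 9 rats). This call was lost with the deposited scaling (0.22, limma adjusted p = 0.31) and when any of rats 1, 2, 3, 4, 6 or 7 was left out, with adjusted p from 0.0503 to 0.0818. Arrays centred on their medians (limma adjusted p = 0.054) and the fibroblast score as a covariate (0.0627) also lost it. So did leaving out the rat 3 and rat 6 proximal arrays (0.0509) or the 3 arrays of highest smooth muscle score (0.0793). With the smooth muscle score as a covariate Pkp3 passed (0.033). Pkp4, a relative of the plakophilins also found at adherens junctions, was lower in distal colon by both of its probe sets. It had 7.94, 8.30 and 8.58 in distal and 8.56, 8.84 and 9.35 in proximal arrays, and it fell by 0.66 on the log2 scale (limma adjusted p = 0.000357, lower in distal colon in every rat).

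Jup, encoding plakoglobin, which links desmosomal cadherins to desmoplakin, had a difference of -0.18 that did not pass (limma adjusted p = 0.0871). It passed with the rat as a block (limma adjusted p = 0.0481), without rat 3 (-0.20, limma adjusted p = 0.0298), without rat 4 (-0.21, limma adjusted p = 0.0442) and when rats 3 and 6 lost their proximal arrays (-0.24, limma adjusted p = 0.0157). Perp, a p53 target and desmosomal membrane protein, had -0.10 (limma adjusted p = 0.171). It passed without rat 3 (-0.13, limma adjusted p = 0.0241) and without the rat 3 and rat 6 proximal arrays (-0.14, limma adjusted p = 0.0185). Jup and Perp each also passed with the smooth muscle or the fibroblast score as a covariate, and without the 3 arrays of highest smooth muscle score. In these settings limma adjusted p was 0.0383 to 0.0424 for Jup and 0.0395 to 0.0444 for Perp. The list held 2 higher and 3 lower genes when the rat 3 and rat 6 proximal arrays were left out, and with the deposited scaling it held 1 and 1. Cdsn, Dsc1 and Dsg1 were under the filter on low signal.

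**Figure D4:**
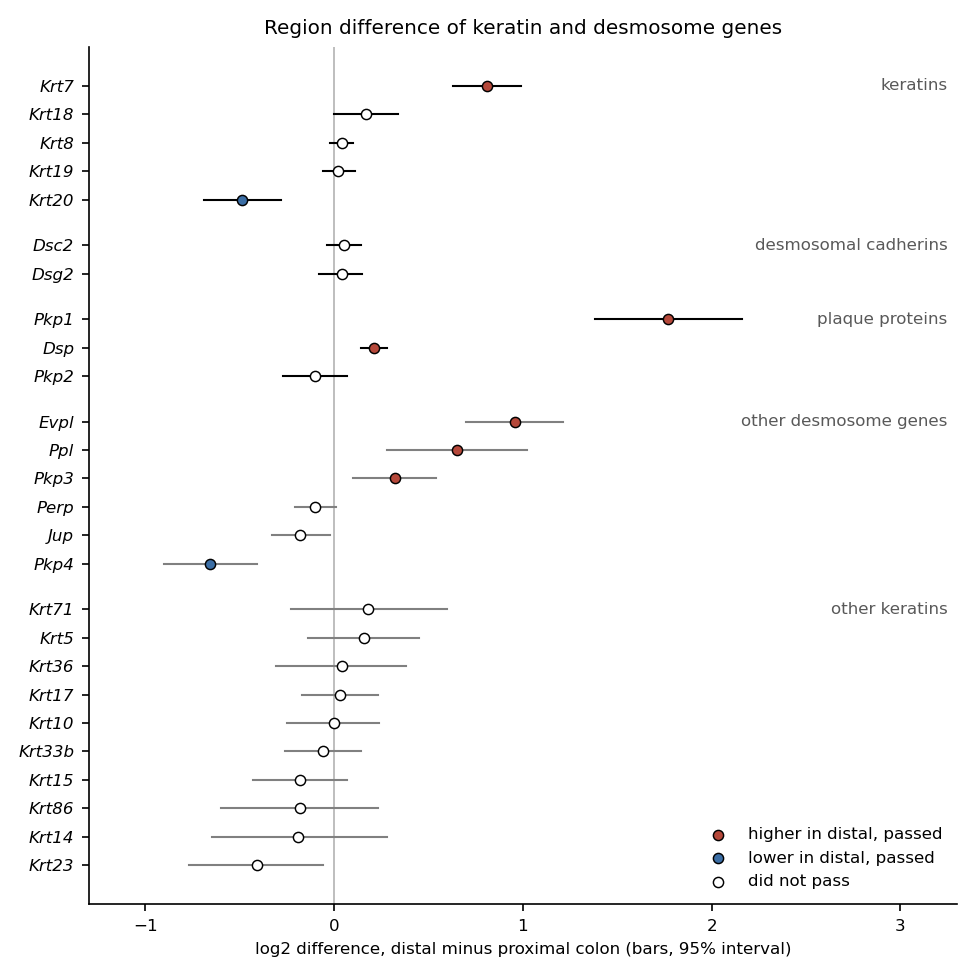
Log2 difference, distal minus proximal colon, with its 95% interval, for the 10 genes (black bars) and the other tested desmosome and keratin genes (grey bars), one row per gene. Pkp1, Evpl, Krt7 and Ppl lie farthest to the right, Pkp4 and Krt20 lie to the left among the called genes, and no other keratin was called.

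Of 39 other keratins listed, 17 had a probe set and 10 were tested, and none passed with quantile normalization. Krt10, a keratin of the suprabasal epidermis, had 6.78, 7.20 and 7.36 in distal and 6.73, 7.20 and 7.57 in proximal arrays (limma adjusted p = 0.984). Krt86, a hair keratin, had a difference of -0.18 (limma adjusted p = 0.537). Krt23, a type I neighbour of Krt20 on chromosome 10, had -0.41 (limma adjusted p = 0.0808), and its 95% interval of -0.77 to -0.06 was the only one of the 10 to leave out 0. It is named after its values were seen. Krt23 passed as lower in distal colon in 6 of the 21 alternative settings, with limma adjusted p from 0.038 to 0.0479. These were the rat as a block (-0.41, limma adjusted p = 0.042), the deposited scaling (-0.56), the smooth muscle score (-0.45) or the fibroblast score (-0.48) as a covariate, rat 1 left out (-0.49), and the rat 3 and rat 6 proximal arrays left out (-0.52).

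Since Pkp1 and Evpl are best known from stratified epithelia, squamous markers were examined in the same arrays. Of 17 such markers 13 had a probe set and 4 were tested, and 9 were under the filter on mean signal, among them Krt1, Krt4, Krt13, Dsg1, Ivl and Tp63. The log2 of the summed signals of these 13 was 10.44 to 10.84 in distal and 9.52 to 10.23 in proximal arrays. Only Sfn passed. Without Sfn this value for the other 12 was 9.13 to 9.41 in distal and 8.92 to 9.24 in proximal arrays, so the ranges overlapped. The part of squamous cells in the Pkp1, Krt7 and Evpl differences was not tested.

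Sfn, encoding 14-3-3 sigma, which binds phosphorylated proteins, keratins among them, had 9.64, 9.98 and 10.26 in distal and 7.96, 9.12 and 9.41 in proximal arrays. It was 1.88-fold higher in distal colon with no overlap (0.91, limma adjusted p = 0.000106, 9 of 9 rats). Sfn is 1 of 7 listed keratin partners, of which 2 were higher and 1 lower, beside 16.2% and 14.5% over all genes. Tchp, encoding a keratin-binding protein, was also higher (0.35, limma adjusted p = 0.00485, but 0.131 with the deposited scaling). Pnn, encoding pinin, a protein of the nucleus and of desmosome-associated sites, was lower by its brightest probe set (-0.36, limma adjusted p = 0.000972). Among its other tested probe sets, that at -0.25 also passed. Those at -0.26 and, in the opposite direction, 0.16 did not. The other 4 keratin partners did not pass, with Pof1b at -0.04 (limma adjusted p = 0.532) and Eppk1 at 0.14 (limma adjusted p = 0.111).

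Hemidesmosomes anchor keratins to the basement membrane. Of 7 tested genes 2 were higher and 2 lower in distal colon, beside 16.2% and 14.5% over all genes. The integrin subunits Itgb4 and Itga6, which form the hemidesmosome receptor, were 1.28-fold and 1.21-fold higher (0.36 and 0.28, limma adjusted p = 0.000198 and 0.0014, each in 9 of 9 rats). With the deposited scaling neither passed (limma adjusted p = 0.19 for Itgb4 and 0.375 for Itga6). The Itga6 values are from its brightest probe set. Among its other tested probe sets, that at 0.50 also passed, while those at 0.19 and 0.32 did not. Lama3, a chain of the laminin these integrins bind, was lower (-0.76, limma adjusted p = 0.00106). So was the linker Dst by its brightest probe set (-0.60, limma adjusted p = 0.0197). Dst did not pass without rat 2 (-0.57, limma adjusted p = 0.0512) or rat 5 (-0.56, limma adjusted p = 0.0576). Its other probe sets were at -0.46 (limma adjusted p = 0.015) and -0.20 (limma adjusted p = 0.273). Plec, the plakin that ties keratins to Itgb4, had -0.17 (limma adjusted p = 0.124).

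The adherens junction, the actin-linked neighbour of the desmosome, had 1 of 9 tested genes higher and 2 lower. Over all genes 16.2% were called higher and 14.5% lower. Cdh1, encoding E-cadherin, had a difference of -0.06 (limma adjusted p = 0.427), as did the intestinal cadherin Cdh17 (limma adjusted p = 0.386). Afdn, encoding the actin linker afadin, was lower by its brightest probe set (-0.44, limma adjusted p = 0.000361). Its other tested probe sets, at -0.24 and 0.03, did not pass. Nectin3, an adhesion molecule, was lower by its brightest probe set (-0.32, limma adjusted p = 0.00193), while another of its probe sets passed in the opposite direction, so its direction is uncertain. Its relative Nectin2 was higher (0.39, limma adjusted p = 0.0194), but not with the deposited scaling (0.30, limma adjusted p = 0.257). Nor did it pass without rat 7 (0.36, limma adjusted p = 0.0553) or without the rat 3 and rat 6 proximal arrays (0.28, limma adjusted p = 0.0715). The other tested Nectin2 probe sets, at 0.23 and 0.50, did not pass.

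Of 9 tested intermediate filament genes other than keratins, 2 were higher in distal colon, beside 16.2% over all genes. Both encode lamins of the nuclear envelope. Lmna was 1.38-fold higher (0.46, limma adjusted p = 0.000489) and Lmnb2 was 1.26-fold higher (0.33, limma adjusted p = 0.0172), each in 9 of 9 rats. Neither passed with the deposited scaling (limma adjusted p = 0.133 for Lmna and 0.232 for Lmnb2), and Lmnb2 did not pass without rat 10 (0.27, limma adjusted p = 0.0616). Lmnb1 had -0.08 (limma adjusted p = 0.616). Smooth muscle markers, whose filament protein is desmin, had 0 of 10 genes called. The log2 of their summed signals was 11.23 to 13.60 in distal and 11.49 to 15.88 in proximal arrays, highest in that of rat 3.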

How the data were processed

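The values were intensities that the authors made with MAS5, per the submitters' processing notes, and deposited as 1 table of 31099 probe sets. Version, scaling target and genome build are not given in the sources here. From the deposited intensities, log2(intensity + 16) was computed for 31042 probe sets that are not controls (57 were), quantile normalized and filtered by leaving out the 30% with the lowest mean (below 5.54). Of these, 20826 had 1 symbol in the array annotation, 436 had several and 9780 were unnamed here. The annotation can be old; the gene IDs of the 10 members matched the RefSeq table.

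The region difference was tested with limma 3.58.1 in R 4.3.3 (lmFit, eBayes with an intensity trend, two-sided, no block), which was checked on simulated data, with Benjamini-Hochberg adjustment over 21729 probe sets. All adjusted p-values of genes are from this test unless another setting is named. Other values came from Python 3.11.15 with numpy 2.4.6, pandas 2.3.3, scipy 1.17.1 and matplotlib 3.10.9. No count or depth exists for these arrays, and their number limits the precision.

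The members, gene lists and alternatives were chosen with earlier results of these data known. The text names all members, from each other list the up to 4 genes that passed with the largest differences and up to 2 with the highest signal, and the 3 genes most like each called member. For a gene with more than 1 probe set, the brightest on average was used. Alternatives were other scalings, pseudocounts and filters, the rat as a block, marker scores as covariates, no intensity trend, and arrays or rats left out. The within-array ratios and the squamous sum without Sfn were added after the data were seen.

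The rat number pairs the 2 arrays of an animal, per the labels. Deviations from the region means correlated within rats with r of 0.000945 to 0.569 (median 0.226, above 0.1 in 6 of 9), against -0.0308 between different rats. At most 0.00643% of values were identical between 2 arrays. The log2 ratio of 3' to 5' control probe sets was 0.79 to 1.82 in distal and 0.85 to 1.26 in proximal arrays for beta-actin, and 0.28 to 0.74 and 0.25 to 0.47 for GAPDH; its part in the results was not tested.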

Additional observations from a re-analysis of the deposited data

Results flagged for a closer look

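Pkp2 in the proximal array of rat 3 stood apart from the other 8 proximal arrays. Its log2 signal was 9.61, the nearest other value was 9.98 and the highest was 10.19, so the gap made up 0.631 of the whole range, above the 95% critical value of Dixon's test for 9 samples. It was the only such value in 20 groups of 9 arrays looked at, and chance gives about 1 in 20. The same array held the highest smooth muscle marker signal of all arrays (12.14), whose part in the Pkp2 value was not tested.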

How the results depend on the processing

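Pkp1, Krt7 and Krt20 kept their direction and passed under all 21 alternatives, among them pseudocounts of 1 and 64, no filter, the lowest 50% left out and marker scores as covariates. With the deposited scaling 788 probe sets were higher in distal colon, against 3105, and 2638 lower, against 2657, so that 23.0% of calls were higher, against 53.9%. With arrays centred on their medians the share was 60.0%. With the deposited scaling Krt8 reversed to -0.10, Krt19 to -0.11, Dsg2 to -0.10 and Dsc2 to -0.09. Krt19 was -0.0027 without the proximal arrays of rats 3 and 6. Krt10 turned to 0.01 with centred arrays and without the 3 arrays of highest smooth muscle signal. With each rat left out in turn Krt10 ran from -0.04 to 0.04, the probe sets called higher from 2592 to 3130 and lower from 2227 to 2885, and the members higher from 3 to 4 with 1 lower. None of the differences of Krt10, Krt8, Krt19, Dsg2 and Dsc2 passed in any of these settings. The relations between partner genes rose to r of 0.864 and 0.821 for Krt8 with Krt18 in distal and proximal colon, 0.956 and 0.917 for Dsg2 with Dsc2 and 0.847 and 0.812 for Dsp with Pkp2 with the deposited scaling. With quantile normalization, 3 of them reversed without the 2 rats farthest from the median. They were -0.426 for Krt8 with Krt18 in distal colon, -0.135 for Dsg2 with Dsc2 and -0.0016 for Dsp with Pkp2 in proximal colon. The causes of these changes were not tested. With the rat as a replicate block, which pairs the arrays of an animal, 3815 probe sets were higher and 3241 lower, and Krt18 (adjusted p = 0.0325), Jup (0.0481) and Krt23 (0.042) newly passed; no other call changed among the members and the keratin, junction and filament genes named here. The design has 9 arrays a region, no untreated animals and no measure of protein, and low signals such as the second Dsp probe set and most squamous markers cannot show a difference.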
